A study of Mus musculus with 16 samples.

Results

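Newborn mouse epidermis of the Dlx3 wild-type genotype was separated into basal and suprabasal keratinocytes, and the messenger RNA of each fraction was measured. The comparison rests on 4 of the 16 RNA-seq libraries of the study, 2 of basal and 2 of suprabasal cells, which were taken by the layer and genotype in their titles and by no measured value. The mice were of mixed CD-1 and C57BL/6 background and between postnatal day 0 and day 2, and the layers were parted on a Percoll gradient, which sorts cells by density. The table that holds these libraries also has 4 from Dlx3 knockout (KO) pups of the same mixed background and age, 2 for each layer. A separately normalized table has 8 from Fvb/N pups of the same age, 4 for each layer. How many pups went into a library, and how the Dlx3 allele was removed in the knockout, are not given in the sources used here.

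The epidermis renews itself from a basal layer that sits on a basement membrane and divides. Cells that leave it stop dividing, exchange the keratin pair Krt5 and Krt14 for Krt1 and Krt10, and rise through the spinous and granular layers. There they make the proteins, enzymes and lipids that are later crosslinked into the cornified barrier of the skin. Krt5 is a keratin of basal cells, Spink5 encodes the inhibitor LEKTI that restrains skin kallikreins, Hal encodes histidine ammonia-lyase, which makes urocanic acid, and Krt78 is a keratin of the upper layers. Dlx3 encodes a homeobox factor known from upper epidermis and hair.

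In the wild type as deposited, the suprabasal fraction differed from the basal one by a limited set of very large rises, further smaller rises and a large number of small falls. The balance depended on the scale. After the libraries were rescaled to a common median ratio, 4550 genes were called higher and 5189 lower. At least 4-fold rises were then 345 and at least 2-fold falls 91. Many messages for cornified envelope proteins, kallikreins and their inhibitors, acylceramide enzymes and suprabasal keratins rose by at least 4-fold, up to 70.2-fold for Spink5. Falls of at least 4-fold were 11, and these included 6 globin genes and the fibroblast marker Dcn. The globins Hbb-b2 and Hbb-bt carry identical values. Most of the 8545 falls stayed under 2-fold, and attachment, cell division, follicle and ribosomal protein genes were among the falls. Changes are given as log2 differences, suprabasal minus basal, on the log2(RPKM + 1) scale, where RPKM are reads divided by gene length and by the mapped reads of the library. A gene was called at an adjusted p under 0.05 in limma; the words rose and fell stand for called changes.

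The marker genes took the direction of the fraction labels. Krt5 stood at 8372 and 8610 RPKM in the 2 basal libraries and at 3863 and 3916 RPKM in the 2 suprabasal libraries. Spink5 went from 0.809 and 1.03 RPKM to 133 and 134 RPKM. Hal went from 0.963 and 1.02 RPKM to 109 and 108 RPKM. Krt78 stood at 0.661 and 0.759 RPKM in basal cells and at 84.3 and 83.4 RPKM in suprabasal cells. For each of these markers the layers did not overlap, and the 2 libraries of a layer lay close together. Spink5 had the largest rise among the named genes, 6.13 ± 0.0539 (SE, n = 2 per layer; limma adjusted p = 1.06e-12), which is 70.2-fold on this scale. Hal rose by 5.78 ± 0.029 (adjusted p = 1.78e-13 in limma) and Krt78 by 5.63 ± 0.0517 (adjusted p = 1.39e-12 in limma). Krt5 fell by 1.13 (SE 0.0244, adjusted p = 2.91e-10 in limma), so that suprabasal cells kept 45.8% of its basal level as deposited. The size of this fall depended on the scale. The change was -0.69 with the libraries rescaled to a common median ratio and -1.89 with quantile normalization. The markers separate the layers by degree: the 3 suprabasal markers were near 1 RPKM in basal cells, while Krt5 was still among the most abundant messages of the suprabasal fraction.

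The DNA just before the start sites of some of these genes is shown because genes that move together are often read for shared letters at their promoters. Each run is the 250 bases upstream of the start site in RefSeq on GRCm38.p6, written 5′ to 3′ along the gene's own strand. Capitals mark matches, on either strand, to AP-1 (TGANTCA), AP-2 (GCCNNNGGC), C/EBP (TTGCNNAA), grainyhead (AACNGGTT) or the TATA box (TATAAA), with N for any base.
Hal, chr10:93488518-93488767, plus strand: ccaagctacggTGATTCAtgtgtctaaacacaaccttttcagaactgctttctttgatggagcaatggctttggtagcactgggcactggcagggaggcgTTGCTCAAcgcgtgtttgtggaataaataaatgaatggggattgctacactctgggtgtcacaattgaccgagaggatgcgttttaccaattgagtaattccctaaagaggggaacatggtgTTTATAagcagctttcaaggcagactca
Krt78, chr15:101954288-101954537, minus strand: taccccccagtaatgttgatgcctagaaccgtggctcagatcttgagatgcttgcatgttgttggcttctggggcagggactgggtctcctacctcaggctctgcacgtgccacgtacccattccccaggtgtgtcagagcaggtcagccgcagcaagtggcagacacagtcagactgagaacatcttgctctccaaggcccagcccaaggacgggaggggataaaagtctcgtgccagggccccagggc
Lor, chr3:92083143-92083392, minus strand: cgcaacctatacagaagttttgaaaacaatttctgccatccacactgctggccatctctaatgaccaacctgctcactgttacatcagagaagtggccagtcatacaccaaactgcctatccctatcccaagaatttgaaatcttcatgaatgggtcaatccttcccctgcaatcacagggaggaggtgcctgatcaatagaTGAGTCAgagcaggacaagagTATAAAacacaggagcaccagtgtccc
Krt10, chr11:99389365-99389614, minus strand: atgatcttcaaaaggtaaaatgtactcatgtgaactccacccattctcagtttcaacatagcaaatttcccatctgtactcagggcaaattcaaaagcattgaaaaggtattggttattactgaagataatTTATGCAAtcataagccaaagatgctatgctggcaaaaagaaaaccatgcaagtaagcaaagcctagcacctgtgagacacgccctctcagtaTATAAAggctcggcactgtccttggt
Krt5, chr15:101712906-101713155, minus strand: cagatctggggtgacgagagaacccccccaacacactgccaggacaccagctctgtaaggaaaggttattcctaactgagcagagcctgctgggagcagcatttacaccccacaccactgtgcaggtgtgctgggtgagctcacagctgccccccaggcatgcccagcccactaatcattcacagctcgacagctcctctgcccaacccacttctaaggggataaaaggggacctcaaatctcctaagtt
Counted in bases from the start site, an AP-1 match begins at -239 in Hal and at -48 in Lor. A C/EBP match begins at -150 in Hal and at -119 in Krt10, and a TATA match at -28 in Hal, -27 in Lor and -26 in Krt10. In the windows of Krt78 and Krt5 none of these exact letters occurred. The start sites shown for Krt78 and Krt10 lie inside the longer spans that RefSeq gives those genes.

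The same letters were counted over all 27025 promoter windows of the RefSeq table, each from 250 bases before to 50 bases after a start site. Windows were matched for 190 of the genes called at least 4-fold higher, for 653 called at least 2-fold lower and for 9467 of all genes tested. AP-1 letters were in 16.8% of the windows of the genes at least 4-fold higher, in 3.37% of those at least 2-fold lower, in 4.75% of all tested and in 7.93% of the whole table. C/EBP letters were in 38 of the 190 windows of the first set and in 5.97%, 7.93% and 10.8% of the other sets. TATA letters were in 18.4%, 7.50%, 6.94% and 14.2%. The GC box GGGCGG went the other way, with 35.3% of the genes at least 4-fold higher against 69.7% of those at least 2-fold lower and 66.4% of all tested. The median GC content of the windows was 54.0%, 61.7% and 61.3% in these sets, so the letters and the base composition moved together, and their parts were not told apart. Grainyhead letters, in 1.58%, 1.07% and 1.88%, and AP-2 letters, in 22.1%, 27.1% and 25.4%, were near the share of all genes tested in each set.

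The 2 basal libraries were estimated at 42200000 reads each and the suprabasal libraries at 39100000 and 34700000 reads, from the smallest steps between their RPKM values. Of the 24981 genes listed, 12146 reached 1 RPKM in at least 2 of the 8 libraries of the table and were tested. Replicates differed by a median of 2.68% (basal) and 2.15% (suprabasal) over genes with 1 annotated transcript and at least 1000 estimated reads. The median ratio of the 2 libraries was taken out first. For these genes the mean squared replicate differences were 4.03 (basal) and 2.28 (suprabasal) times what counting error alone gives. By the median they were 2.05 and 1.51 times that. Measured in the same way, basal library 1 and suprabasal library 1 differed by a median of 37.0%, which leaves out the overall shift between them. Over all genes tested, with the median ratio left in, the replicates differed by a median of 3.70% and 3.47%. Because nothing in the sources says that the 2 libraries of a group come from separate animals, p-values measure only the spread between these libraries, which may be technical.

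This small spread made most differences pass: limma called 10881 genes, 89.6% of those tested, of which 2336 (19.2%) rose and 8545 (70.4%) fell. At least 4-fold rises were 261 (2.15%), at least 2-fold rises 664 (5.47%), at least 2-fold falls 849 (6.99%) and at least 4-fold falls 11 (0.0906%). With 0.1 RPKM added in place of 1, at least 4-fold rises were 410, because low basal values then count for more. RPKM are shares of a library, and the median change of all genes was -0.40. After rescaling the libraries to a common median ratio the median was -0.04 and 4550 genes were called higher (37.5%) and 5189 lower (42.7%). After quantile normalization the median was -0.15, with 3726 higher (30.7%) and 6384 lower (52.6%). At least 4-fold rises stayed near their number, 345 (2.84%) rescaled and 302 (2.49%) by quantiles, whereas at least 2-fold falls were only 91 (0.749%) and 186 (1.53%). Called rises were thus 21.5% of all calls as deposited, 46.7% rescaled and 36.9% by quantiles. Counts of list members are therefore set beside these shares and given also after rescaling. The lists were chosen with earlier results of these data known, so their counts describe the members and test nothing. In whole fractions, fewer cells of a type and less RNA per cell cannot be told apart.

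**Figure D1:**
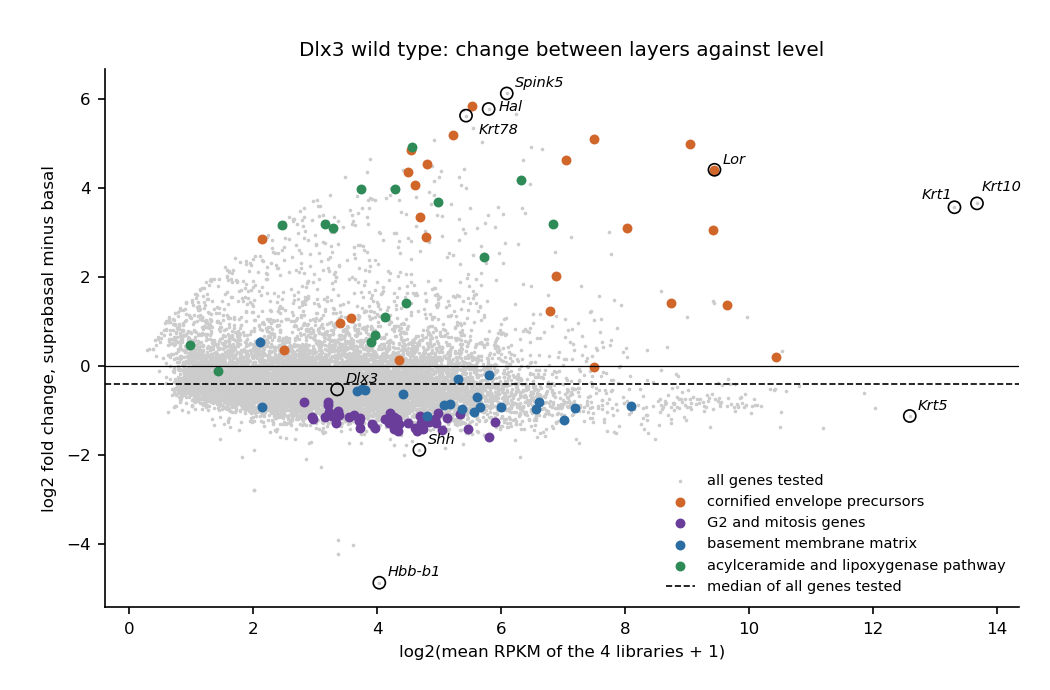
Log2 fold change (suprabasal minus basal) of each of the 12146 genes tested against log2(mean RPKM of the 4 libraries + 1), with 4 gene lists in colour, named genes ringed and a dashed line at the median of all genes, -0.40. Rises of 4 log2 units and more occur over a wide range of levels and reach 6.13 in Spink5, while most falls end above -2 and globin genes such as Hbb-b1 lie lowest.

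Keratins carried the largest movement of RNA. Krt1 and Krt10, the keratin pair of spinous cells, together took 1.01% and 0.996% of the RPKM sum of the basal libraries and 14.3% of that of each suprabasal library. Krt5 and Krt14 together went from 3.99% and 4.03% to 2.23% in each suprabasal library. Krt1 stood at 1579 and 1586 RPKM in basal and at 18800 and 18866 RPKM in suprabasal cells, and Krt10 at 1922 and 1929 against 24250 and 24420 RPKM. Krt14, the partner of Krt5, stood at 5499 and 5614 against 2865 and 2867 RPKM. The layers were far apart for each of them. The Krt5 level divided by that of Krt1 was 5.30 and 5.43 in basal libraries and 0.205 and 0.208 in suprabasal libraries, a change of balance that a common scaling cannot produce. Krt1 rose by 3.57 (SE 0.022) and Krt10 by 3.66 (SE 0.0226; limma adjusted p = 2.14e-13 for each), while Krt14 fell by 0.96 and Krt15, a further basal keratin, by 0.57.

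**Figure D2:**
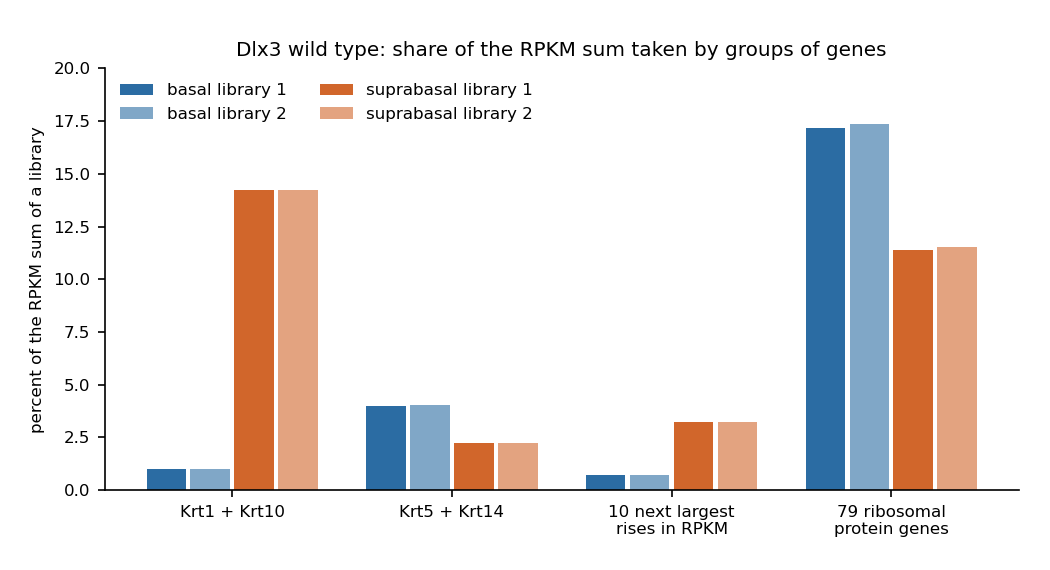
Percent of the RPKM sum of each of the 4 libraries taken by Krt1 and Krt10, by Krt5 and Krt14, by the 10 genes with the next largest rises in RPKM and by the 79 ribosomal protein genes. Krt1 and Krt10 grow from about 1% to 14.3% of the sum, and the ribosomal genes shrink from over 17% to under 12%.

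All 10 suprabasal keratins tested rose (median 2.31, against -0.40 for all genes), 6 of them by at least 4-fold. Besides Krt78, Krt10 and Krt1 these included Krt23 (2.52), Krt77 (2.41) and Krt13 (2.21), whereas Krt80 rose by only 0.41. Of 5 keratins known from wounded skin and appendages, Krt6b (4.16), Krt6a (2.87), Krt16 (2.55) and Krt75 (1.01) rose and Krt17 fell by 0.89, from 1497 and 1561 to 819 and 826 RPKM. Krt6a and Krt6b are near-identical copies, so the split of reads between them is uncertain.

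Genes that hold the basal cell to its matrix were mostly lower. Of 19 hemidesmosome and integrin genes tested, 14 fell and 3 rose (13 and 5 after rescaling), a share of falls near the 70.4% of all genes tested, while their median of -0.78 was below the -0.40 of all genes. Col17a1, the transmembrane collagen of the hemidesmosome, was 409 and 415 RPKM in basal and 212 and 213 RPKM in suprabasal cells. Itga6, its integrin partner, was 118 and 116 against 59.8 and 59.5 RPKM. Each had a suprabasal level close to 51% of the basal one, and the libraries did not overlap. Their changes were -0.95 (Col17a1) and -0.96 (Itga6), and Itga3, a laminin receptor, fell by 1.10. Itgb5, an integrin of the vitronectin receptor type, went against the list and rose by 0.71.

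Of 21 basement membrane genes tested, 20 fell and 1 rose (18 and 3 after rescaling), with a median of -0.87. Npnt, nephronectin, an integrin ligand, went from 38 and 36.9 RPKM to 16.3 and 16.8 RPKM and fell by 1.13 (SE 0.0361; limma adjusted p = 2.92e-09). The exception was Nid1, which encodes nidogen and was low in every library (2.67, 2.39, 4.18 and 4.09 RPKM); it rose by 0.54. Among 22 genes of basal identity, 21 fell and 1 rose (18 and 2 after rescaling; median -0.91). Trp63, the factor that maintains stratified epithelia, went from 109 and 103 RPKM to 50.4 and 49.4 RPKM and fell by 1.07. The G1 cyclins Ccnd2 (-1.57) and Ccnd1 (-1.48) fell further, and Egfr was the gene that rose, by 0.15, a call that was lost without basal library 2.

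**Figure D3:**
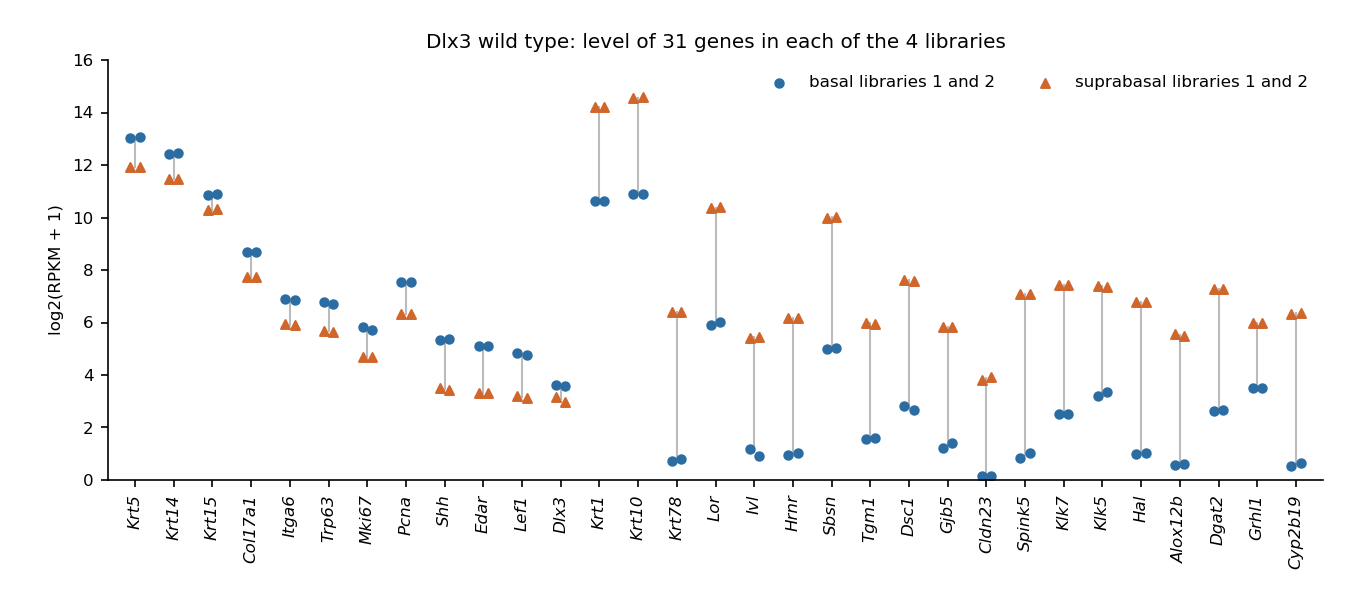
Level of 31 genes in the 2 basal (circles) and 2 suprabasal (triangles) libraries, as log2(RPKM + 1), with a line between the layers. The points of a layer lie on top of each other for nearly every gene, the basal and division genes on the left drop by up to 2 units and the genes on the right rise by 2 to 6.

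Genes for the cornified envelope, the crosslinked protein shell of the dead cell, rose widely. Of 25 genes tested in a list of precursors and related genes, 23 rose and 0 fell, 16 of them by at least 4-fold. The remaining 2, Calm5 and Stfa1, did not pass as deposited and rose after rescaling and by quantiles. Their median was 3.05. Lor, loricrin, the most abundant envelope protein, was 58.5 and 64.5 RPKM in basal and 1320 and 1341 RPKM in suprabasal cells. Sbsn, suprabasin, was 30.7 and 32.1 against 1023 and 1039 RPKM. Ivl, involucrin, an early scaffold of the envelope, was 1.29 and 0.901 against 41.7 and 42.9 RPKM. In the basal fraction Lor and Sbsn were thus already well above 1 RPKM, whereas Ivl was near it. Lor rose by 4.42 (SE 0.0421), Sbsn by 4.99 (SE 0.0285) and Ivl by 4.37 (SE 0.0804; adjusted p between 1.89e-13 and 1.08e-10 in limma).

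Other genes of this list, not all of them envelope proteins, rose too, several as far as Lor. Lypd5, of the Ly6 and uPAR family, rose by 5.86, from 0.601 and 0.516 to 91.6 and 87.5 RPKM. Hrnr, hornerin, a repeat protein of the granular layer, rose by 5.20, Ly6g6c by 5.10, Cnfn, cornifelin, by 4.85, Flg2 by 4.55 and Cdsn, corneodesmosin, the adhesive of the outermost cells, by 4.08. Krtdap (1.37) and Dmkn (3.05), secreted proteins of the spinous layer, stood at 444 and 452 and at 143 and 149 RPKM in the basal fraction, against 1139 and 1179 and 1216 and 1228 RPKM in the suprabasal one.

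The small envelope families moved less on the log2(RPKM + 1) scale. All 8 Sprr genes tested rose (median 1.17), led by Sprr1a (3.16), Sprr1b (2.85) and Sprr4 (2.09). In RPKM itself the Sprr genes did not move less. Their median suprabasal level was 1030% of the basal one, against 876% for the envelope precursors and 117% for the Lce genes. The added 1 RPKM weighs on low values. Of 15 Lce genes, which serve the latest stage of the envelope, 6 rose and 9 did not pass (12 rose after rescaling), with a median of 0.19. Lce1m, the highest of them, rose by 0.51, from 13.3 and 14.8 to 19.3 and 21.5 RPKM. The Lce1 and Sprr2 genes are near-identical neighbours, so their separate values are uncertain. The enzymes that crosslink the envelope rose with it: Tgm1 by 4.39, from 1.97 and 2.01 to 62.6 and 60.7 RPKM, Tgm3 by 1.88 and Tgm5 by 0.51.

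Proteases and their inhibitors rose side by side. Of 25 proteases of shedding and processing tested, 21 rose and 3 fell (23 and 2 after rescaling; median 1.21). Klk7, the chymotrypsin-like kallikrein that cuts corneodesmosomes, was 4.69 and 4.77 RPKM in basal and 173 RPKM in each suprabasal library. Klk5, which activates other kallikreins, was 8.27 and 9.16 against 168 and 163 RPKM. They rose by 4.92 (SE 0.0329) and 4.10 (SE 0.0541), and Klk8 by 2.83. Klk10 was the member of the family that fell, by 0.75, and Ctsl, cathepsin L, fell by 0.68.

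Of 15 protease inhibitors tested, 14 rose and 1 fell (15 and 0 after rescaling), and their median of 2.78 was above that of the proteases. Below Spink5 came Serpinb3a (5.04), Serpinb3b (3.92), Serpinb12 (3.42), Wfdc5 (3.25) and Cst6, the cystatin M/E inhibitor of legumain and cathepsins (2.78). The member that fell was Cstb (-0.26), which rose by 0.17 after rescaling and by 0.05, not called, by quantiles. Serpinb3 genes are near-identical copies whose reads may be split. The 6 genes tested of the route that breaks down granule protein to histidine and urocanic acid all rose (median 1.86). They included Casp14 (3.55), the caspase of cornification, Asprv1 (1.80), the retroviral-like protease SASPase, and Padi1 (1.91), a deiminase. Hal, at the end of that route, moved most.

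The removal of nuclei and organelles gave a divided picture. Of 24 nuclease and autophagy genes tested, 7 rose and 16 fell (9 and 12 after rescaling), a share of falls no higher than the 70.4% of all genes tested. The risers were the secreted or skin nucleases, with Rnase1 (3.50), Endou (2.89), Dnase1l2 (2.32) and Trex2 (1.95) among them, and Dnase1l2 and Trex2 are known for breaking down DNA in cornifying cells. Bnip3 (-0.95), a mitophagy receptor, was among those that fell.

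Lipid genes of the barrier rose, and those at the acylceramide end rose most. Acylceramides are ceramides with very long chains whose ends are esterified and oxidized by lipoxygenases before they bind the envelope. Of 16 genes tested, 15 rose and 0 fell, with a median of 3.13 and 10 at least 4-fold higher. Alox12b, the first lipoxygenase of the route, was 0.484 and 0.525 RPKM in basal and 46.3 and 43.7 RPKM in suprabasal cells. Elovl4, which lengthens the chains, was 7.12 and 7.38 against 150 and 151 RPKM. The layers were separated by more than 20-fold in RPKM for each of these. Alox12b rose by 4.93 (SE 0.0514), Elovl4 by 4.20 (SE 0.0366), the second lipoxygenase Aloxe3 by 3.98, the hydroxylase Cyp4f39 by 3.70, the transacylase Pnpla1 by 3.20, the dehydrogenase Sdr9c7 by 3.16 and the lamellar granule transporter Abca12 by 3.10. Cers3, the ceramide synthase for very long chains, rose by 1.10, whereas Cers2 fell by 0.97.

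Of 29 genes of general ceramide metabolism, 20 rose and 7 fell (24 and 2 after rescaling; median 0.43), led by the ceramidase Acer1 (4.08) and the sphingosine kinase Sphk1 (2.99). Smpd1, which frees ceramides from sphingomyelin, rose by 1.76. Of 30 fatty acid and triglyceride genes, 19 rose and 7 fell (23 and 7 after rescaling), with Dgat2, a triglyceride synthase, at 5.24 and 5.28 RPKM in basal against 156 and 155 RPKM in suprabasal cells, a rise of 4.64. Lipm, an acid lipase of the granular layer, rose by 3.65, whereas Fads1 (-0.72) and Lpin2 (-0.88) fell.

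Cholesterol synthesis was higher along most of its length: 21 of 28 genes rose and 4 fell (24 and 2 after rescaling; median 0.61). Sult2b1, which makes cholesterol sulfate, rose by 2.55, and Sqle (1.54), Dhcr7 (1.45) and Mvk (1.37), enzymes of the middle, end and start of the route, rose alike. Idi1 fell by 0.65 and Hmgcs1 fell by 0.45, but after rescaling Hmgcs1 was at -0.01 and not called.

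Cell contacts changed by isoform. Of 15 desmosome genes, 12 rose and 3 fell, with the same counts after rescaling. Dsc1, a cadherin of upper layers, was 5.97 and 5.32 RPKM in basal and 196 and 193 RPKM in suprabasal cells, a rise of 4.88 (SE 0.0455; limma adjusted p = 1.55e-12). Dsg1a rose by 2.53 and Dsp, desmoplakin, by 1.11. Dsg2 (-0.95) and Dsg3 (-0.70), cadherins of lower layers, and Pkp4 (-1.43) fell. Dsg1a and Dsg1b are close copies, and their reads may be shared.

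Gap junction genes showed the same division, with 7 of 10 higher and 3 lower (7 and 2 after rescaling; median 1.33). Gjb5 rose by 4.50, from 1.33 and 1.68 to 55.9 and 55.6 RPKM, while Gjc1 fell by 1.12. Gja1, connexin 43, the most abundant of the family, rose by 0.40, from 160 and 158 to 213 and 209 RPKM. Of 14 tight junction genes, 8 rose and 2 fell (12 and 1 after rescaling), led by Cldn23 (3.71), Cldn4 (3.09) and Cgn, cingulin (2.76). Cldn7 fell by 0.69, at levels under 1.5 RPKM throughout. Of 11 adherens junction genes, 5 rose and 5 fell (7 and 2 after rescaling): Nectin4 rose by 3.21, and Ctnnb1, beta-catenin, fell (-1.20), from 595 and 596 to 260 and 259 RPKM.

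**Figure D4:**
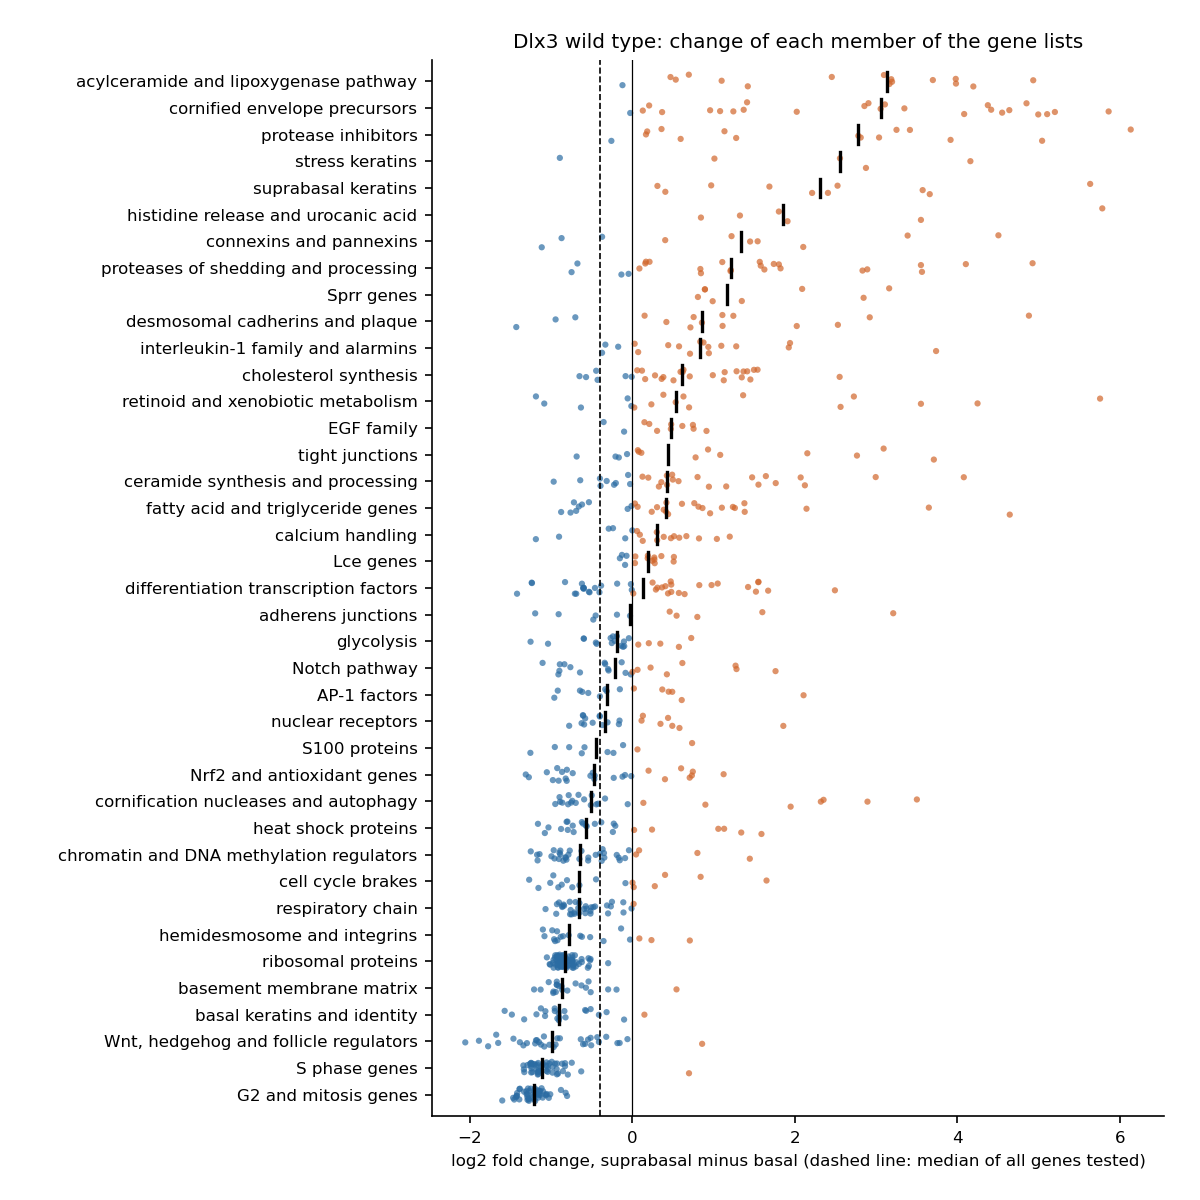
Log2 fold change (suprabasal minus basal) of each tested member of the gene lists, one row per list, coloured by sign, with a bar at the median of the list and a dashed line at the median of all genes, -0.40. Acylceramide, envelope and inhibitor genes have medians near 3, and the division genes at the bottom lie in a narrow band near -1.2; points just left of the solid line, such as Notch1 at -0.34, can change sign when the libraries are rescaled.

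Regulators of differentiation moved less than the genes of the barrier. Of 40 transcription factors tested, 20 rose and 17 fell (24 and 12 after rescaling; median 0.13), and only Grhl1, of the grainyhead family, rose by at least 4-fold, from 10.2 and 10.3 to 62.1 and 62.7 RPKM (2.49). Grhl3 (1.55), Ovol1 (1.55), Zfp750 (1.52), Cebpb (1.42) and Klf4 (0.64), known activators or brakes of the same program, rose as well. Their close relatives went down: Grhl2 changed by -0.83 and Ovol2 by -1.24, so that within the grainyhead and Ovol families members moved in opposite directions. Tfap2b (-1.42) and Tead2 (-1.24) also fell.

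Dlx3 itself was 11.16 and 11.01 RPKM in basal cells and 7.87 and 6.92 RPKM in suprabasal cells, so its level was not higher in the upper fraction. It fell by 0.53 (SE 0.07; limma adjusted p = 6.17e-05), close to the median of all genes, and after rescaling the value was -0.13 with an adjusted p of 0.12 in limma. Dlx5, a relative, rose by 1.67, from 0.436 and 0.42 to 3.85 and 3.26 RPKM.

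Of 22 Notch pathway genes, 6 rose and 12 fell as deposited, and 13 rose and 7 fell after rescaling, so no direction holds for the pathway. Single members held theirs under each scaling: the receptors Notch3 (1.76) and Notch2 (1.28) rose, and the ligands Jag2 (-0.90) and Dll1 (-0.84) and the glycosyltransferase Lfng (-1.11) fell. Notch1 fell by 0.34 as deposited and rose by 0.09 after rescaling. Of 15 AP-1 and related factors, 5 rose and 9 fell (8 and 5 after rescaling), with Nfe2l3 (2.11) above the rest and Atf3 (-0.96) below. Among 20 nuclear receptors, 7 rose and 13 fell (9 and 7 after rescaling), and Rora rose most, by 1.86. In the Notch, AP-1 and nuclear receptor lists the share of falls was no higher than the 70.4% of all genes tested. In the EGF family 9 of 11 rose (10 after rescaling), Hbegf by 0.91.

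Signals of the hair follicle were lower in the suprabasal fraction. Of 34 Wnt, hedgehog and follicle regulators tested, 32 fell and 1 rose (27 and 5 after rescaling). Their median was -0.99 as deposited and -0.61 after rescaling. As deposited 17 were at least 2-fold lower, against 6.99% of all genes tested. The 2-fold count of the list was not made after rescaling, where such falls were 0.749% of all genes. Shh, the follicle's hedgehog ligand, was 38.8 and 40.1 RPKM in basal and 10.2 and 9.63 RPKM in suprabasal cells. Edar, the ectodysplasin receptor, was 33.2 and 33.1 against 9.07 and 8.87 RPKM. Lef1, a Wnt effector, was 27.7 and 26.4 against 8.08 and 7.79 RPKM. These genes kept about 25% to 29% of their basal level, less than Krt5 did as deposited. By quantiles Krt5 fell further than Shh, at -1.89 against -1.60. Shh fell by 1.89 (SE 0.0343), as did Edar (-1.78), Lef1 (-1.65), the hedgehog receptor Ptch1 (-1.34) and the Wnt inhibitor Dkk4 (-2.06). Lgr5, a marker of follicle stem cells, rose by 0.86 at levels under 4 RPKM. Sp5 (-2.28) and Ascl4 (-1.89), transcription factors outside these lists, were among the largest falls, with Rragd (-2.10), a GTPase of the mTORC1 pathway.

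Division genes fell as a block. Of 49 S phase genes, 48 fell and 1 rose, and of 49 G2 and mitosis genes all fell, with the same counts after rescaling. Their medians were -1.12 and -1.21 as deposited and -0.69 and -0.82 after rescaling. Pcna, the polymerase clamp, was 186 and 188 RPKM in basal and 78.3 and 78.1 RPKM in suprabasal cells. Mki67, the Ki-67 antigen, was 55.6 and 51.8 against 25.02 and 25.05 RPKM. The suprabasal fraction thus kept about 42% and 47% of these messages. Pcna (-1.25) and Mki67 (-1.07) fell, and Ube2c, which drives mitotic exit, fell most (-1.60). E2f2 was the S phase list's riser (0.70). Of 17 brakes of the cell cycle, 4 rose and 11 fell (7 and 9 after rescaling), a share of falls no higher than the 70.4% of all genes tested. Among them Cdkn2b (1.65) and Cdkn1a (0.84) rose and Cdkn2c fell by 1.27. The replication-dependent histone gene Hist1h2an (-2.01, SE 0.386) had the widest error among the largest falls, and its family is made of near-identical copies.

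Among 36 chromatin and DNA methylation regulators, 30 fell and 2 rose (21 and 11 after rescaling; median -0.64). Ezh2, the methyltransferase of Polycomb complex PRC2, went from 42.9 and 43.2 to 17.6 and 17.4 RPKM and fell by 1.25. Bmi1 (-1.17) and Dnmt3a (-0.90) fell too, while the Polycomb reader Cbx7 rose by 1.44.

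Of 79 ribosomal protein genes, 79 fell as deposited, from -0.30 in Rpl18 to -1.05 in Rps14 with a median of -0.83. After rescaling 77 fell and 1, Rpl18, rose. Their summed share went from 17.2% and 17.4% to 11.4% and 11.5% of the RPKM sum. Of 35 respiratory chain genes, 33 fell and 0 rose (25 and 8 after rescaling; median -0.65). In glycolysis, 4 of 21 rose and 13 fell, and after rescaling 14 rose and 4 fell, so its direction turned with the scale, although Gapdh (-1.04) and Ldhb (-1.25) fell and Hk1 (0.72) rose under each.

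Retinoid, interleukin-1 family and calcium genes were mostly higher. S100, antioxidant and heat shock genes were mostly lower as deposited, but 70.4% of all genes tested fell too. After rescaling, the medians of these S100, antioxidant and heat shock lists were -0.04, -0.07 and -0.15, against -0.04 for all genes. Of 17 retinoid and xenobiotic genes, 11 rose and 3 fell (14 and 3 after rescaling). Cyp2b19, an arachidonate epoxygenase of mouse keratinocytes, was 0.462 and 0.566 RPKM in basal and 79.7 and 81.8 RPKM in suprabasal cells, a rise of 5.76 (SE 0.044), and Rdh12, a retinal reductase, rose by 4.25. Of 17 interleukin-1 family and alarmin genes, 12 rose and 2 fell (14 and 0 after rescaling), with Gsdmc, a gasdermin, at 3.74. Of 19 calcium handling genes, 12 rose and 5 fell (17 and 2 after rescaling), among them Trpv3 (1.04), a heat-gated channel of keratinocytes, and, downward, Calm2 (-1.19). Of 10 S100 genes, 1 rose and 8 fell (3 and 5 after rescaling), S100a10 among them (-1.26). Of 26 Nrf2 and antioxidant genes, 7 rose and 17 fell (10 and 12 after rescaling), Sod1 among them (-1.31). Of 24 heat shock genes, 5 rose and 18 fell (10 and 13 after rescaling), and Hspb1, the small heat shock protein HSP27, rose by 1.59, from 51.4 and 54.7 to 160 and 163 RPKM. The largest rises outside the lists were Susd2 (5.67), Dkkl1 (5.37) and Skint9 (5.07, of a family known from thymus and skin of mice). In the Fvb/N libraries Skint9 had a mean of 0 RPKM in each layer and was not tested.

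Markers of other cells are set beside all genes tested, of which 70.4% fell and whose median suprabasal level was 71.4% of the basal one. The median level was 64.0% for melanocyte, 85.1% for Langerhans and myeloid, 48.3% for T cell and 73.1% for fibroblast markers. For erythroid markers it was 0.44%. The 6 erythroid genes tested all fell, and the summed level of the 9 listed went from 99.6 and 106 RPKM to 0.961 and 1.26 RPKM. Hbb-b1 alone was 28.7 and 32.8 RPKM in basal against 0.105 and 0.0493 RPKM in suprabasal cells, a fall of 4.88; the globin genes are near-identical pairs. Of 8 melanocyte markers, 7 fell (5 fell and 1 rose after rescaling), with sums of 112 and 111 RPKM in basal and 70.9 and 70.3 RPKM in suprabasal libraries. Of 8 Langerhans and myeloid markers, 5 fell and 0 rose as deposited and 0 fell and 5 rose after rescaling, with sums of 178 and 182 against 155 and 154 RPKM. The 3 T cell markers tested fell (sums 20.5 and 20.9 against 10.03 and 10.58 RPKM). Fibroblast markers split: Dcn (-2.05) and Fn1 (-1.56) fell and Col3a1 (2.11) and Col1a1 (1.29) rose, with Col1a1 at 2.21 RPKM at most. No defining marker of melanocytes, Langerhans cells, T cells, fibroblasts or red cells was at 0 in all 4 libraries; Emcn, of endothelium, and Myh8, of muscle, were.

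Inner root sheath markers, which belong to hair follicles, were higher in the suprabasal fraction: all 5 tested rose, with sums of 7.002 and 6.941 RPKM against 34.8 RPKM in each suprabasal library. Krt71 (2.95) went from 0.0874 and 0.0767 to 7.80 and 6.96 RPKM. These 5 and the follicle regulators above thus moved in opposite directions. Of 5 Merkel cell markers, 4 fell and 1 rose, with the same counts after rescaling, where 70.4% of all genes tested fell as deposited and 42.7% after rescaling. Of 3 hair shaft and matrix genes tested, 2 rose and 1 fell, and of 3 sebaceous genes 1 rose and 1 fell. The 6 muscle genes were below the level for testing. What part other cells had in the falls and rises above was not tested.

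Some of the genes at least 4-fold higher were neighbours on the chromosomes (GRCm38.p6 coordinates from RefSeq, matched for 98.5% of the genes at least 4-fold higher). Most of the 261 lay outside the clusters named here, Spink5, Hal, Lypd5, Cyp2b19 and Susd2 among them. Over all genes tested, 2.15% rose by at least 4-fold. In the epidermal differentiation complex on chromosome 3 (90511034 to 93526288) 8 of 44 did, among them Hrnr, Flg2, Lor, Ivl and Rptn. In the kallikrein cluster on chromosome 7 (43712567 to 44229622) 3 of 8 did, in the type II keratin cluster on chromosome 15 (101348315 to 102032026) 6 of 15, and in the type I cluster on chromosome 11 (99232761 to 100269951) 4 of 16. The serpin cluster on chromosome 1 (106861175 to 107608978) had 6 of 11 and the desmosomal cadherin cluster on chromosome 18 (19960930 to 20604526) 3 of 7. The keratin clusters also held falls: as deposited, Krt5 and Krt8 were at least 2-fold lower beside Krt1, Krt77 and Krt78. After rescaling Krt5 was at -0.69. These clusters were picked because their genes were known to rise, so the shares describe them and test nothing.

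The Fvb/N libraries gave the same genes' values in other animals, normalized apart and compared here with no test between the tables. Of 259 wild-type genes at least 4-fold higher that were tested in Fvb/N, 257 (99.2%) were called higher there and 0 lower, against 12.8% called higher among all 11447 genes tested in both. Of 832 genes at least 2-fold lower, 790 (94.95%) were called lower and 0 higher, against 61.1% of all. Over all genes tested in Fvb/N, 13.4% were called higher and 60.6% lower. The sizes differed between the tables by direction. For the rises the median was 2.91 in the wild type and 2.34 in Fvb/N, and for the falls -1.15 and -2.05. Krt5 was -1.13 in the wild type and -4.28 in Fvb/N and Col17a1 -0.95 and -4.75. Spink5 was 6.13 and 3.99, Hal 5.78 and 4.07, and Krt78 5.63 and 3.58. The sample descriptions put the Fvb/N libraries in 2 dated sets of 4, each with 2 libraries of each layer, and the sets gave different sizes. Krt5 was -5.31 in the first set and -3.24 in the second, Col17a1 -5.78 and -3.71, Spink5 2.98 and 4.99, and Hal 2.85 and 5.29. The directions of the large changes held within each: 254 and 258 of the 259 rises were called higher, and 773 and 819 of the 832 falls lower, with 8 called higher in the first set. Ribosomal genes, all lower in the wild type, had no common direction in Fvb/N. Their median was 0.67 in the first set, with 52 of 79 called higher, and -0.32 in the second, with 6 called lower. The globins differed between the sets too: Hbb-b1 was -0.50, not called, in the first and -3.62 in the second, and Hba-a1 1.30, not called, and -3.02. Strain, the date in the sample descriptions and normalization differ between the tables and cannot be told apart.

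**Figure D5:**
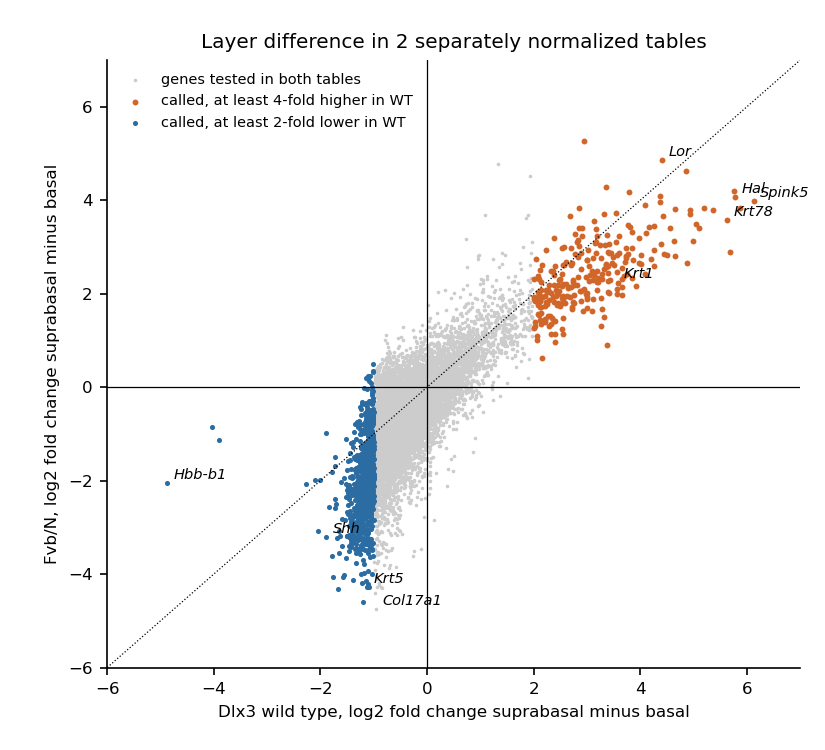
Log2 fold change (suprabasal minus basal) of the 11447 genes tested in both tables, wild type on the horizontal and Fvb/N on the vertical axis, with the genes at least 4-fold higher and at least 2-fold lower in the wild type coloured and a dotted line of equal change. Coloured rises lie mostly below the line and coloured falls, apart from the globins, mostly below it too, so rises are smaller and falls larger in Fvb/N.

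Beside the knockout libraries of the same table, the wild-type layer difference itself differed for 2737 genes (22.5% of those tested, limma interaction), 982 (8.08%) more positive and 1755 (14.4%) more negative in the wild type. Without basal library 2 the count was 1600 and without suprabasal library 1 it was 1789. Lor rose by 4.42 in the wild type and 3.32 in the knockout (difference 1.10, adjusted p = 3.4e-05 in limma), and Krt78 by 5.63 and 4.83. Ivl (4.37 and 4.29), Cdsn (4.08 and 4.20) and Rptn (2.86 and 2.84) had differences of 0.08, -0.12 and 0.02 that did not pass. The inner root sheath keratin Krt71 rose by 2.95 in the wild type against a change of 0.16 in the knockout (difference 2.79, adjusted p = 5.6e-06 in limma).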

How the data were processed

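Per the file headers, the authors deposited RPKM per gene and library, with reads mapped to mm10; the submitters' processing notes name bcl2fastq 2.20.0.422, TopHat2 2.1.1 and Partek. The gene annotation and the treatment of reads that map to several places are not given in the sources used here, and neither is strandedness, so overlapping and antisense genes cannot be told apart. The deposited comparison columns were not used. No counts were used: depth was estimated from the smallest steps of RPKM values, and read-level tests were not run.

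RPKM + 1 was taken to log2. Genes at 1 RPKM or more in at least 2 of the 8 libraries of the Dlx3 table were fitted as 4 groups with limma 3.58.1 under R 4.3.3, its variance prior following the level, and p-values were adjusted by Benjamini-Hochberg over all genes tested. The Fvb/N table was fitted alone, with at least 1 RPKM in at least 4 libraries. Fold changes on this scale understate low genes. Alternatives were 2 other pseudocounts, 2 other filters, rescaling, quantile normalization, the 4 wild-type libraries alone, no trend, a replicate block and each library left out; a term for the dated set of the Fvb/N libraries was added after seeing the data. Tables were made with Python 3.11.15, pandas 2.3.3 and numpy 2.4.6, and figures with matplotlib 3.10.9.

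The members, the 51 gene lists and the rules were chosen with earlier results of these data known. Named genes are the markers, the 12 largest rises and falls at 5 RPKM or more, the 10 largest in RPKM, and up to 5 members of each list with those against its majority. Some genes that these rules name are not reported here. Same-numbered libraries did not deviate together (correlations from -0.05 to 0.06).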

Additional observations from a re-analysis of the deposited data

Results flagged for a closer look

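For 24 of the 26 genes named for the size of their change or as markers, the suprabasal minus basal difference was itself different in wild-type and knockout mice by limma's interaction test. Most of these genes were chosen for the size of their wild-type change, which is itself a term of the difference tested and favours a larger change in the wild type, so their number is not read against that of other genes. The values below are the wild-type minus the knockout log2 difference. In 13 genes the wild-type difference was more positive. These were Krt5 (0.20), Spink5 (0.37), Hal (0.44), Krt78 (0.80), Lypd5 (0.55), Cyp2b19 (0.82), Susd2 (0.48), Dkkl1 (0.49), Hrnr (0.68), Ly6g6c (0.86), Skint9 (0.65), Serpinb3a (0.98) and Sbsn (0.50). For Krt5, which fell, this means a smaller fall in the wild type. In 11 genes it was more negative. These were Dlx3 (-0.60), the globins Hbb-b1 (-1.08), Hbb-bs (-1.18), Hba-a1 (-1.11), Hba-a2 (-1.22), Hbb-b2 (-1.25) and Hbb-bt (-1.25), and Sp5 (-0.58), Dcn (-0.21), Ascl4 (-0.47) and Shh (-0.44). Hbb-b2 and Hbb-bt carry identical values in the table and count as 1 measurement.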

How the results depend on the processing

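The counts of genes higher and lower moved most with the scale, the count at least 4-fold higher with the pseudocount, and the interaction with the library left out. Genes higher were 4550 after rescaling and 3726 by quantiles against 2336 as reported, and genes lower were 5189 after rescaling against 8545. With 0.1 RPKM as the pseudocount, 410 genes were at least 4-fold higher against 261. Leaving out each library in turn gave 2181 to 2240 genes higher, 8261 to 8328 lower, 256 to 261 at least 4-fold higher and 1600 to 2311 genes in the interaction, where 2737 were reported and the counts without basal library 2 (1600) and without suprabasal library 1 (1789) were more than 1.5 times smaller; for the rises and falls fewer genes were tested in such fits. Under the replicate block the counts were 2341 higher, 8521 lower, 261 at least 4-fold higher and 2654 in the interaction. The numbers pair no libraries here. Among the named genes, Cstb turned to 0.17 after rescaling and 0.0485 by quantiles, Rpl18 to 0.14 and 0.33, Stfa1 to 0.41 and 0.23, and Notch1 to 0.0888 after rescaling; Stfa1, not called, ranged from -0.0781 to 0.024 when each library was left out. The cause of the interaction's movement was not tested. With the dated set as a term, chosen after seeing the data, 1729 genes were higher and 7345 lower in Fvb/N against 1554 and 7030, Hbb-b1 (-2.06) was called, and 2 ribosomal genes were called higher against 0. With 2 libraries per layer the p-values rest on a small spread between libraries, and RPKM cannot tell a fall of a message from growth of the others.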
